A study of Danio rerio with 6 samples.

Results

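The genes described here are those of the cell division cycle and of DNA replication, followed in trunk and tail muscle of zebrafish larvae that carry the runzel mutation and of their wildtype siblings. Members were taken by gene symbol: mcm, orc, rfc and cdk followed by a digit, the cyclins ccna, ccnb, ccnd and ccne, symbols that begin with cdc, aurk, plk or gins, and pcna, top2a, mki67, bub1, bub3, rrm1, rrm2, tyms, chek1 and gmnn, with cdc42 symbols left out. The rule found 81 genes of the 8793 with a single symbol in the platform annotation, measured by 103 probe sets. The rule reads symbols and no signal values, but it was written with earlier results of these data known. The runzel group held 3 arrays of mutant larvae, a line with muscular dystrophy that the series title ties to a titin mutation, and the wildtype group held 3 arrays of their siblings. Larvae of both groups were dissected at 3 to 3.5 days after fertilization, when the phenotype first shows, and head, heart and gut were removed. Muscle was pooled before RNA extraction. The sources used here give neither the number of larvae per pool nor the zygosity of mutants and siblings at the locus. The series description states that mutants and siblings came from 3 shared clutches, and arrays of the same number are called a pair below because their values varied together, since no label ties a number to a clutch.

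A dividing cell first loads the ring of Mcm proteins onto DNA at replication origins marked by the origin recognition complex, a step called licensing. Cyclin-dependent kinases then fire the origins, the clamp loader RFC places the sliding clamp PCNA on DNA for the polymerases, and ribonucleotide reductase and thymidylate synthase supply the building blocks. Cyclin A and cyclin B with Cdk1, Aurora and Polo-like kinases then drive mitosis, and the anaphase-promoting complex ends it by marking cyclins for destruction. Muscle fibres have left the cycle, so in a growing larval trunk such transcripts are usually made by other cells, such as muscle progenitors, epidermis, neural progenitors, blood and vessel cells. In whole tissue, fewer dividing cells and less RNA per dividing cell cannot be told apart.

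No tested cell cycle or replication gene differed between runzel and wildtype siblings past the threshold. Of the 81 genes, 61 were bright enough to be tested, each at its brightest probe set, and 0 passed at an adjusted p under 0.05 in limma without a block, against 0% of the 6136 genes tested. With the array number as a block, a fit that compares within pairs, again 0 of the 61 passed, against 1.3% of all tested genes (0.717% higher and 0.587% lower in runzel). Over the 9301 tested probe sets the block gave 1.19% (0.72% higher and 0.473% lower), and 4.81% had an unadjusted p under 0.05 without it. At an unadjusted p under 0.05 there were 2 of 61 members without the block, against a background of 4.97%, and 3 of 61 with it, against 13.1%. At the brightest probe sets, the smallest adjusted p of a member was that of rfc3, at 0.963 without the block and 0.155 with it.

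The members' differences had a spread near that of all tested genes. On the scale of log2(signal + 50), which understates changes of dim probe sets, 31 members lay above 0 and 30 below, with a median difference, runzel minus wildtype, of 0.035, whose sign turned with quantile normalization (-0.011) and median centring (-0.019). Over all tested genes 3100 lay above 0 and 3036 below, with a median of 0.003. The median absolute difference was 0.125 for the members and 0.131 for all tested genes. Differences of the members ran from -0.48 for rfc3 to 0.52 for cdk8, and those of all tested genes from -1.40 to 2.53. The 3 runzel and the 3 wildtype signals did not overlap for 6 of 61 members, top2a, cdca4, cdc73 and cdk5rap3 with runzel higher and rfc3 and cdca7b with runzel lower, against 10.7% of all tested genes (5.67% higher and 5% lower in runzel). Runzel was higher in 3 of 3 pairs for 10 members and lower in 3 of 3 for 7, which is 16.4% and 11.5%, against 17.7% of all tested genes in either direction.

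**Figure D1:**
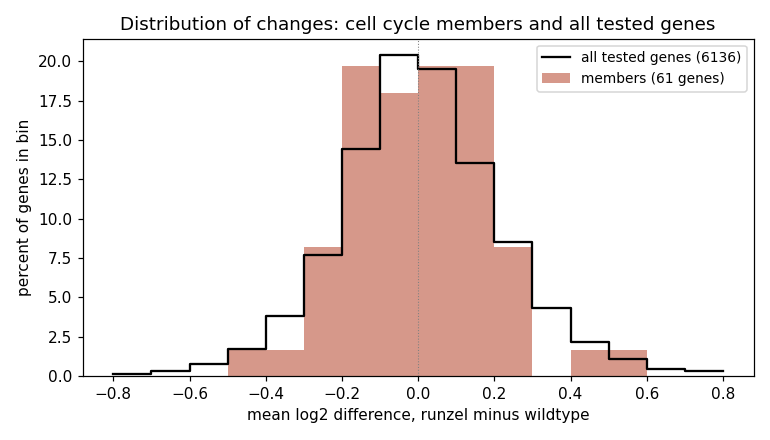
Mean log2 difference (runzel minus wildtype, in bins of 0.1) on the x axis and percent of genes per bin on the y axis, for the 61 tested members (bars) and all 6136 tested genes (line). The x axis stops at -0.8 and 0.8, which leaves out 0.847% of all genes, and the members, between -0.48 and 0.52, follow the outline of all genes.

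How large a change these arrays leave possible is described by the 95% intervals of the differences. Each interval is for 1 probe set, without adjustment over the members. The intervals rest on the variance model with an intensity trend, and none without the trend are given. Without the block the interval lay within a 2-fold change in either direction for 57 of 61 members, and with the block for 61 of 61, against 93.1% and 97.3% of all tested genes. The 4 members with wider intervals without the block were orc3, cdc37l1, cdk5 and cdk8. These counts cover the brightest probe set of each tested member. Of all 73 tested member probe sets, 68 lay within 2-fold without and 72 with the block, against 92.3% and 97.4% of all tested probe sets. The exception with the block was a cdk13 probe set, at 0.294 to 1.129. The 20 members too dim to test are not counted. Fitted without the filter, ccna1 had an interval of -0.025 to 1.468 and gins1 of -1.397 to 0.19 with the block. The median half-width of the members' intervals was 0.44 without the block and 0.35 with it. An exact permutation test of 1 gene cannot go below p = 0.1 here.

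The deposited signals were already scaled, and the 2% trimmed mean lay between 1500.42 and 1500.46 on the 6 arrays. Scaling to a common level would set this value, so it does not show that the arrays were alike before scaling. After scaling, the median signal lay between 602.1 and 672.3. The ratio of 3′ to 5′ actin control signal (acta1), a reading of RNA integrity, averaged 2.485 ± 0.398 on runzel arrays and 1.515 ± 0.195 on wildtype arrays (SD, n = 3 each). The GAPDH ratio averaged 1.501 ± 0.037 on runzel arrays and 1.572 ± 0.039 on wildtype arrays. The part of RNA integrity in the members' values was not tested. Of 13 skeletal muscle markers, 10 had a probe set and all of these were tested, 2 above 0 and 8 below, with a median of -0.071. Their summed signal was 790000 to 881000 in runzel and 836000 to 970000 in wildtype siblings, and 0 of them passed in either fit. A transcription factor gene of the muscle lineage, myod1, named here after its values were seen, adds little to this sum and lay above 0, with 869.5, 854 and 611 in runzel and 489, 304 and 401 in wildtype siblings. Every runzel array was higher for myod1, by 0.89 ± 0.41, without passing (adjusted p = 0.814 without and 0.0918 with the block). Of 8 eye markers, 6 had a probe set, none bright enough to be tested, with a sum of 636 to 1630 in runzel and 688 to 1250 in wildtype siblings.

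Among the licensing genes, 11 of 16 were tested, 3 above 0 and 8 below, with a median of -0.11, and 0 passed. The subunits of the Mcm2 to Mcm7 ring, the core of the replicative helicase, were all tested and lay between -0.18 and 0.14, with a median of -0.017. The helicase subunit gene mcm2 read 2935, 3098 and 3344 in runzel and 2792, 3573 and 3819 in wildtype siblings, a difference of -0.11 ± 0.15 (SD over 3 pairs). The mcm2 signals of the groups overlapped, and the interval with the block was -0.37 to 0.16. Its partner mcm5 read 2718, 2842 and 2884 in runzel and 2324, 2749.7 and 2606 in wildtype siblings. In mcm5 runzel was higher in each pair, by 0.14 ± 0.087 (adjusted p = 0.98 without and 0.686 with the block), and the groups overlapped. The subunit gene mcm4 read 2251, 2048 and 1956 in runzel and 2196, 2541 and 2350.5 in wildtype siblings, a difference of -0.18 ± 0.18 with an interval of -0.46 to 0.11 with the block. Runzel was lower there in pairs 2 and 3 and close to its sibling array in pair 1.

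The remaining ring genes lay nearer to 0, mcm3 at -0.016 ± 0.20, mcm6 at 0.043 ± 0.25 and mcm7 at -0.018 ± 0.18. Of the origin recognition complex, orc1, whose product binds origin DNA and ATP, read 1097, 871 and 793 in runzel and 1146, 1011 and 983 in wildtype siblings. It was lower in runzel in each pair, a difference of -0.19 ± 0.12, with overlapping groups (adjusted p = 0.651 with the block). Signals of orc2, orc3 and orc4 differed by -0.12, -0.22 and 0.075 in that order. For orc3, runzel array 2 was far below the other 5 arrays, with signals of 633, 216 and 629 in runzel and 610.5, 494 and 489 in wildtype siblings. The loading factor gene cdc6 read 598, 727 and 392 in runzel and 692, 547 and 602 in wildtype siblings, a difference of -0.12 ± 0.47 that changed sign between pairs.

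**Figure D2:**
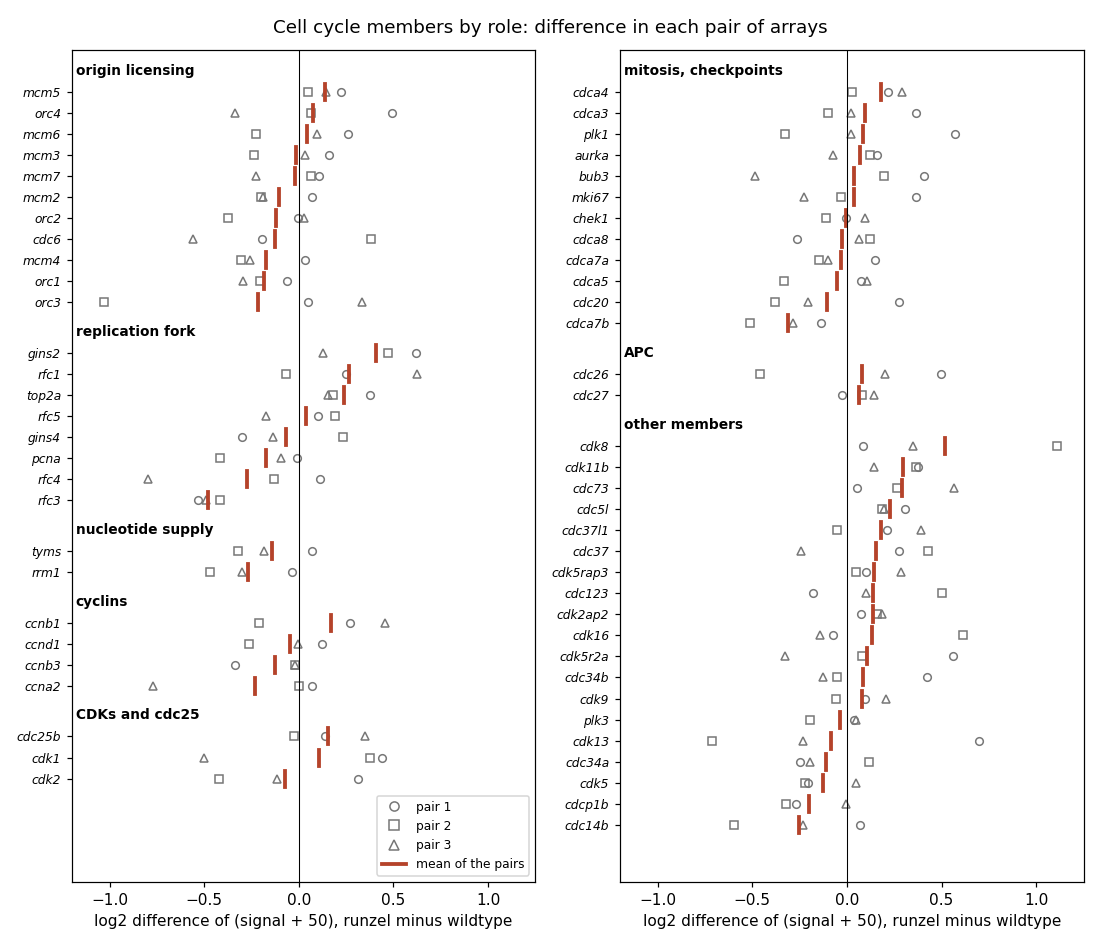
Log2 difference of (signal + 50), runzel minus wildtype, on the x axis for each of the 61 tested members on the y axis, grouped by role. Open symbols are the 3 pairs of arrays and bars their mean, and in most rows the pairs lie on both sides of 0, while for rfc3 they lie together between -0.535 and -0.415.

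The replication fork genes held the members furthest from 0 in the division cycle proper. Of 12 genes 8 were tested, 4 above 0 and 4 below, with a median of -0.014, and 0 passed. The clamp loader subunit gene rfc3 read 1172, 1147 and 937 in runzel and 1721, 1545 and 1334 in wildtype siblings, so every runzel array lay below every wildtype array. With n = 3 each and the SD, the rfc3 mean was 1085 ± 129 in runzel and 1534 ± 194 in wildtype siblings, and the 3 pairs gave nearly the same difference, -0.48 ± 0.061. Its interval was -0.86 to -0.10 without and -0.78 to -0.18 with the block, yet over all probe sets tested the adjusted p was 0.963 and 0.155. The other tested clamp loader subunits had values on both sides of 0, with rfc1 at 0.27 ± 0.35, rfc4 at -0.27 ± 0.47 and rfc5 at 0.040 ± 0.19, and a second tested probe set of rfc4 at -0.14 ± 0.18. None of these passed.

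The sliding clamp gene pcna, a common marker of replicating cells, read 17372, 13678 and 15866 in runzel and 17518, 18298 and 16909.8 in wildtype siblings. Runzel array 2 was the lowest of the 6 pcna signals, the groups overlapped, and the difference of -0.17 ± 0.21 did not pass (adjusted p = 0.977 without and 0.498 with the block). With the block its interval was -0.39 to 0.038, so that a 2-fold change in either direction lies outside it. Of the GINS complex, which holds the helicase together at the fork, gins2 read 788, 548 and 495 in runzel and 496, 382 and 449 in wildtype siblings. The gins2 difference of 0.41 ± 0.25 was above 0 in 3 of 3 pairs, with overlapping groups and an adjusted p of 0.451 with the block. Without runzel replicate 1 the gins2 difference was 0.22. By contrast gins4 lay at -0.067 ± 0.27. The topoisomerase gene top2a, whose product untangles DNA before mitosis, read 1005, 835 and 832 in runzel and 764, 731 and 742 in wildtype siblings at its brightest probe set. Every runzel array was above every wildtype array there, by 0.24 ± 0.12, without passing (adjusted p = 0.593 with the block), and by 0.15 without runzel replicate 1. A second tested probe set of top2a pointed the other way, at -0.14 ± 0.64.

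For the supply of nucleotides, rrm1 and tyms were tested, and both lay below 0. The large subunit gene of ribonucleotide reductase, rrm1, read 1672, 1376 and 1326 in runzel and 1714, 1925 and 1643 in wildtype siblings. Runzel was lower in each pair, a difference of -0.27 ± 0.22, with overlapping groups (adjusted p = 0.464 with the block), or -0.17 without pair 2. The thymidylate synthase gene tyms read 1364, 1168 and 1149 in runzel and 1296, 1469 and 1311 in wildtype siblings, a difference of -0.14 ± 0.20 (adjusted p = 0.73 with the block). Its sign turned in pair 1.

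**Figure D3:**
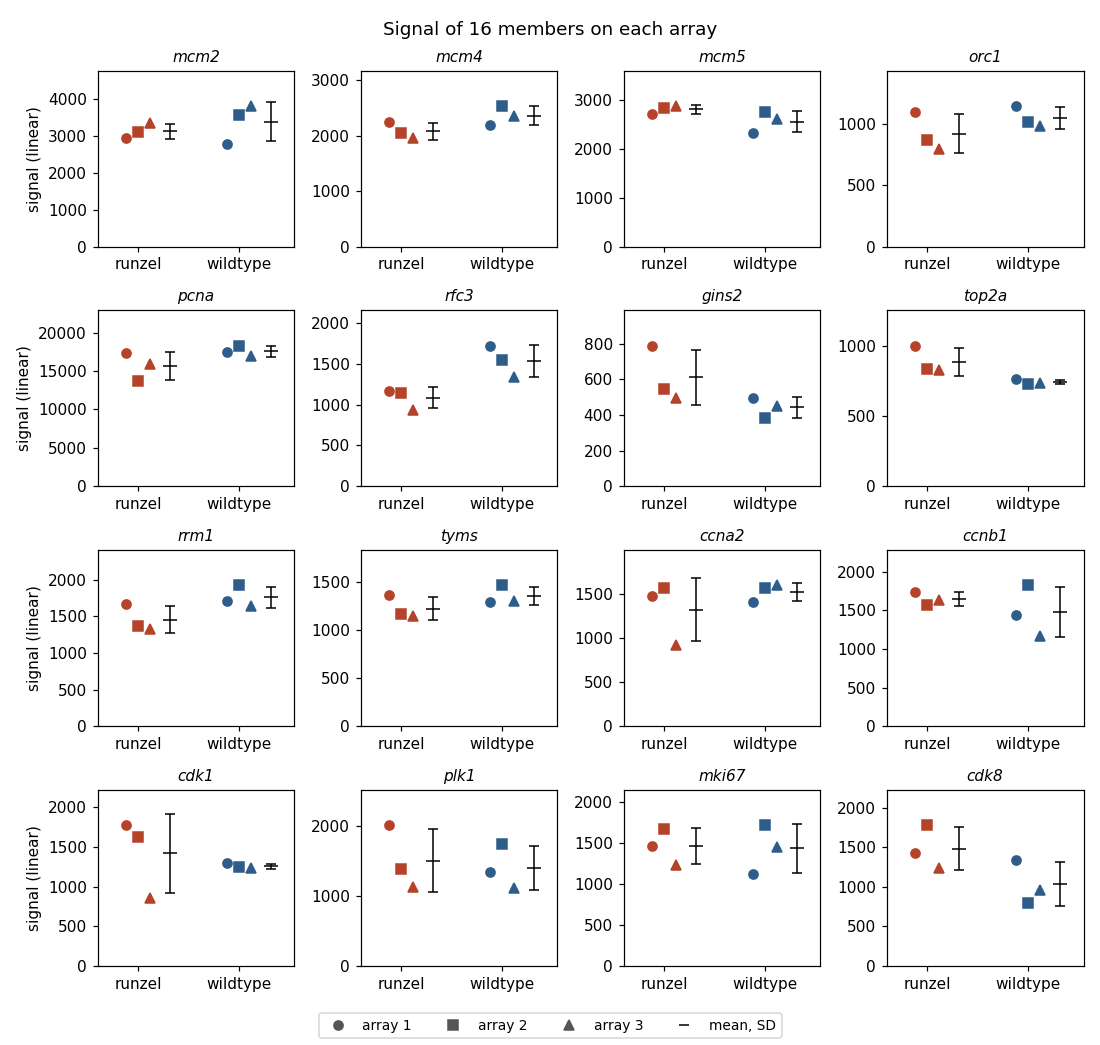
Linear signal on the y axis (from 0) for 16 members on each array, runzel at the left and wildtype siblings at the right of each panel. Symbols mark the array number and the bar the mean with its SD (n = 3), and of these 16 genes rfc3 and top2a alone have groups that do not overlap.

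Of the 8 cyclin genes 4 were tested, ccnb1 above 0 and ccna2, ccnb3 and ccnd1 below, with 0 that passed. Cyclin A2, which acts in S phase and early mitosis, is encoded by ccna2, which read 1479, 1570.2 and 914 in runzel and 1404, 1567 and 1595 in wildtype siblings. Runzel array 3 stood well below the other 5 arrays, and the difference was -0.23 ± 0.47, or 0.004 without that array. The mitotic cyclin gene ccnb1 read 1744, 1571 and 1630.3 in runzel and 1439, 1824 and 1174 in wildtype siblings, a difference of 0.17 ± 0.34. Its lowest and its highest signal were both on wildtype arrays. The G1 cyclin gene ccnd1, which couples growth signals to the cycle, read 5267, 4096 and 4481 in runzel and 4828, 4931 and 4489.6 in wildtype siblings. These signals are from its brightest probe set, where the groups overlapped. The difference of ccnd1 there was -0.048 ± 0.20, with an interval of -0.30 to 0.21 with the block. At a second tested probe set of ccnd1 the groups did not overlap, and runzel was lower in 3 of 3 pairs, at -0.112 ± 0.0474. That probe set did not pass either (adjusted p = 0.724 with the block). At -0.12 ± 0.18, ccnb3 was lower in 3 of 3 pairs and did not pass. Its difference was -0.337 in pair 1 and -0.019 in each of pairs 2 and 3. The names of the tested probe sets of ccnb3 and of ccnb1 mark probes that may bind related transcripts.

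Of the 4 genes of division kinases and their activators, 3 were tested, 2 above 0 and 1 below, and 0 passed. The mitotic kinase gene cdk1 read 1777, 1628 and 855 in runzel and 1296, 1244 and 1231 in wildtype siblings, a difference of 0.10 ± 0.53. The wildtype cdk1 signals lay close together, and the runzel signals lay on both sides of them. At -0.075 ± 0.37, cdk2, the S phase kinase gene, had an interval of -0.43 to 0.28 with the block. The phosphatase gene cdc25b, whose product activates Cdk1, read 2364, 1452 and 1878 in runzel and 2147, 1477 and 1460.2 in wildtype siblings at its brightest probe set, a difference of 0.15 ± 0.19. All 3 tested probe sets of cdc25b lay between 0.074 and 0.155.

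Of the genes of mitosis and its checkpoints, 12 of 14 were tested, 6 above 0 and 6 below, with a median of 0.014 and 0 that passed. The proliferation marker gene mki67 read 1461, 1672 and 1234 in runzel and 1123, 1713 and 1451 in wildtype siblings at its brightest probe set, a difference of 0.035 ± 0.30 with an interval of -0.30 to 0.37 with the block. Polo-like kinase 1, which acts at the centrosome and spindle, is encoded by plk1, which read 2019, 1383 and 1130.1 in runzel and 1345, 1747 and 1115 in wildtype siblings. The plk1 groups overlapped, and the difference was 0.087 ± 0.45. The mki67 and plk1 probe sets carry the same cluster number in their names, and whether their signals are independent was not tested.

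The spindle checkpoint gene bub3 read 2075, 2027 and 1975 in runzel and 1556, 1762 and 2788 in wildtype siblings, with the 3 runzel signals inside the range of the wildtype signals. Its difference was 0.038 ± 0.47. The checkpoint kinase gene chek1, which holds cells with damaged or stalled DNA, read 459, 541 and 432 in runzel and 461, 589 and 400.5 in wildtype siblings, a difference of -0.0070 ± 0.10. Of all tested members chek1 lay nearest to 0. The aurora kinase gene aurka lay at 0.069 ± 0.12, and cdca8, a subunit gene of the complex that carries aurora B, at -0.024 ± 0.21. Of the cdca genes, cdca4 read 1371, 1206 and 1277 in runzel and 1171, 1184 and 1035 in wildtype siblings, with runzel higher on every array, by 0.18 ± 0.14 (adjusted p = 0.648 with the block). In cdca7b, a relative of human CDCA7, which acts in keeping DNA methylated, the signals were 451, 421 and 492 in runzel and 500.4, 622 and 611 in wildtype siblings. Every runzel array was lower there, a difference of -0.31 ± 0.19 (adjusted p = 0.574 with the block), while its paralogue cdca7a lay at -0.034 ± 0.16. The last tested genes of the class, cdca3 and cdca5, lay at 0.10 ± 0.24 and -0.051 ± 0.25.

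The anaphase-promoting complex was represented by cdc26 and cdc27 among tested genes. The scaffold subunit gene cdc27 read 832, 1079 and 1107 in runzel and 848, 1020.2 and 998 in wildtype siblings, a difference of 0.065 ± 0.084. The small subunit gene cdc26 read 2035, 903 and 1379 in runzel and 1429, 1261 and 1194 in wildtype siblings, where runzel arrays 1 and 2 were the highest and the lowest of all 6, and its difference was 0.078 ± 0.49. The activator of the complex, cdc20, read 1070.5, 599.8 and 357 in runzel and 877, 796 and 419.6 in wildtype siblings, a difference of -0.10 ± 0.34 with an interval of -0.53 to 0.32 with the block.

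A further 22 members share the letters of the rule but have a main role outside the classes above, among them cdk8, cdk9, cdk11b and cdk13 in transcription, cdc73 in the Paf1 complex of RNA polymerase, cdc5l in splicing, cdc37 as a partner of the Hsp90 chaperone and cdk5 in neurons. Of these, 19 were tested, 13 above 0 and 6 below, with a median of 0.13, and 0 passed. The Mediator kinase gene cdk8 read 1425, 1779 and 1242 in runzel and 1339, 796 and 964 in wildtype siblings at its brightest probe set. Runzel cdk8 was higher in 3 of 3 pairs, by 0.52 ± 0.53, with overlapping groups (adjusted p = 0.977 without and 0.279 with the block). Without pair 2 the cdk8 difference was 0.22 in the fit with the block (adjusted p = 0.731). A second tested probe set of cdk8 gave 0.39 ± 0.039, again higher in 3 of 3 pairs and again not passing (adjusted p = 0.279 with the block).

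Next to it stood cdk11b, whose product acts in splicing and transcription, which read 1870.0, 2181 and 1402 in runzel and 1428, 1684 and 1263 in wildtype siblings. The cdk11b difference of 0.29 ± 0.13 was above 0 in 3 of 3 pairs, with an interval of 0.0040 to 0.59 and an adjusted p of 0.388 with the block, and its second tested probe set gave 0.32 ± 0.13. Without runzel replicate 2 the cdk11b difference was 0.16, without runzel replicate 3 it was 0.47, and without pair 1 its adjusted p with the block was 0.764. The transcription kinase gene cdk13 was singled out after its values were seen, because its probe sets disagreed. Its brightest probe set lay at -0.082 ± 0.72, and the other tested ones at 0.50 ± 0.20 and 0.71 ± 0.37, both with non-overlapping groups. The probe set with the largest cdk13 difference read 917, 1117 and 717 in runzel and 478, 546 and 576 in wildtype siblings, with an adjusted p of 0.13 with the block, and the name of the one at 0.50 marks probes that may bind related transcripts. The Hsp90 partner gene cdc37 lay at 0.15 ± 0.35 and cdc5l at 0.23 ± 0.068. The other tested genes of this class, cdc123, cdc14b, cdc34a, cdc34b, cdc73, cdcp1b, cdk16, cdk2ap2, cdk5r2a, cdk5rap3, cdk9 and plk3, lay between -0.25 for cdc14b and 0.29 for cdc73, besides cdk5 and cdc37l1, which are given with the array numbers.

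**Figure D4:**
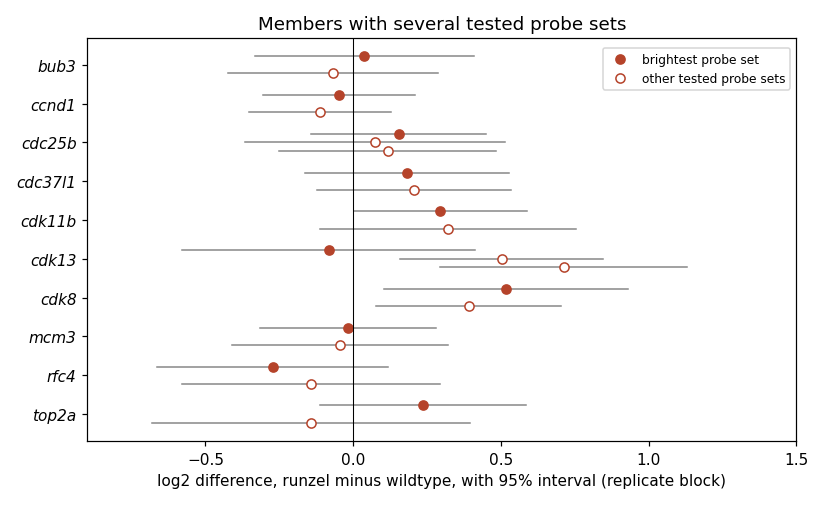
Log2 difference, runzel minus wildtype, on the x axis with its 95% interval from the fit with the replicate block, for the 10 members with more than 1 tested probe set. Filled points are the brightest probe set of a gene and open points the others, and the probe sets of bub3, cdk13 and top2a lie on both sides of 0.

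More than 1 tested probe set was available for 10 members. Their signs matched for 7 genes and differed for 3, namely bub3, cdk13 and top2a, and the median gap between the highest and the lowest difference of a gene was 0.094. With the mean of the tested probe sets in place of the brightest one, 0 of 61 members passed, and the smallest adjusted p was 0.836.

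The members that were too dim to test numbered 20, namely ccna1, ccnb1l, ccnb2, ccndbp1, ccne1, cdc7, cdc23, cdc45, cdca9, cdk5rap2, cdk7, gins1, gins3, gmnn, mcm6l, mcm9, orc5, orc6, plk2b and plk4. At their probe set with the highest mean signal, 15 of them lay above 0 and 5 below, with a median of 0.29 and a range of -0.66 to 0.72. All 6201 probe sets below the filter also lay above 0 more often than not, 62.7% of them, with a median of 0.12. The 5th percentile of signal was 48.8, 61.0 and 35.9 on runzel arrays and 45.8, 33.0 and 32.9 on wildtype arrays, and its part in the dim differences was not tested. The cyclin gene ccna1, known from male germ cells in mouse, read 304, 149.9 and 83.9 in runzel and 121, 56.3 and 66.4 in wildtype siblings, and the G1 cyclin gene ccne1 read 478, 335 and 276 in runzel and 293, 157 and 227 in wildtype siblings. These 2 were named after their values were seen. Fitted without the filter, ccna1 gave 0.72 ± 0.46 and ccne1 0.58 ± 0.33, with adjusted p-values of 0.5 and 0.505 with the block, and no dim member passed (smallest adjusted p 0.473 with and 0.97 without the block).

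The array number was also tested, for any difference among the 3 numbers and not for a particular array being low. In a test added after the data were seen, of the array number in the fit with the block, 3 of 61 members passed, cdk5, cdc37l1 and cdc20, which is 4.92%, against 7.89% of all tested genes. For cdk5, a kinase of neurons, the signals were 861, 95.1 and 1004 in runzel and 1002, 119 and 969 in wildtype siblings. Both arrays numbered 2 were thus far below the other 4 (adjusted p = 1.56e-04), and within pairs runzel and wildtype cdk5 differed by -0.13 ± 0.15. Signals of cdc37l1, a relative of cdc37, were 1505, 1034 and 661 in runzel and 1294, 1074 and 493 in wildtype siblings, lowest on both arrays numbered 3 (adjusted p = 0.00716). The same held for cdc20, given above (adjusted p = 0.0233).

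The deviations of the member probe sets from their group means correlated at 0.54, 0.65 and 0.62 between arrays of the same number and at -0.53 to -0.016 between arrays of different numbers, over 73 probe sets that share the same libraries. Deviations sum to 0 within a group, so the negative values follow in part from the positive ones. Over all tested probe sets, members included, the same-number values were 0.551, 0.389 and 0.526. The numbers were taken as pairs from those values, so the members' values are no separate support for the pairs. Several classes were lowest in both groups on the arrays numbered 3. The median deviation there was -0.266 on runzel 3 and -0.149 on wildtype 3 for the kinase class, -0.151 and -0.14 for the cyclins, and -0.059 and -0.067 for all members, in the same order. The mitosis class was likewise lowest on both, with a median deviation from each gene's mean over 6 arrays of -0.16 on runzel 3 and -0.19 on wildtype 3, against 0.155 and 0.036 on runzel 1 and 2 and -0.033 and 0.205 on wildtype 1 and 2. The fork, nucleotide supply and other classes were lowest there in both groups too. Over all tested genes these medians were also lowest on the arrays numbered 3, at -0.016 on runzel 3 and -0.011 on wildtype 3. The order is thus shared with the whole array, where these medians stayed between -0.016 and 0.020. Of the 12 mitosis genes, 6 had their lowest signal of both groups on the arrays numbered 3, which is 50%, against 31.1% of all members and 19.5% of all tested genes. Of the 11 licensing genes it was 2, which is 18.2%. The licensing and anaphase-promoting complex classes had their lowest median of the runzel group on runzel 2, at -0.106 and -0.197. No test was made of these differences. Between runzel and wildtype the median of all members was 0.10 in pair 1, -0.053 in pair 2 and -0.004 in pair 3, so the pairs did not share a direction.

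**Figure D5:**
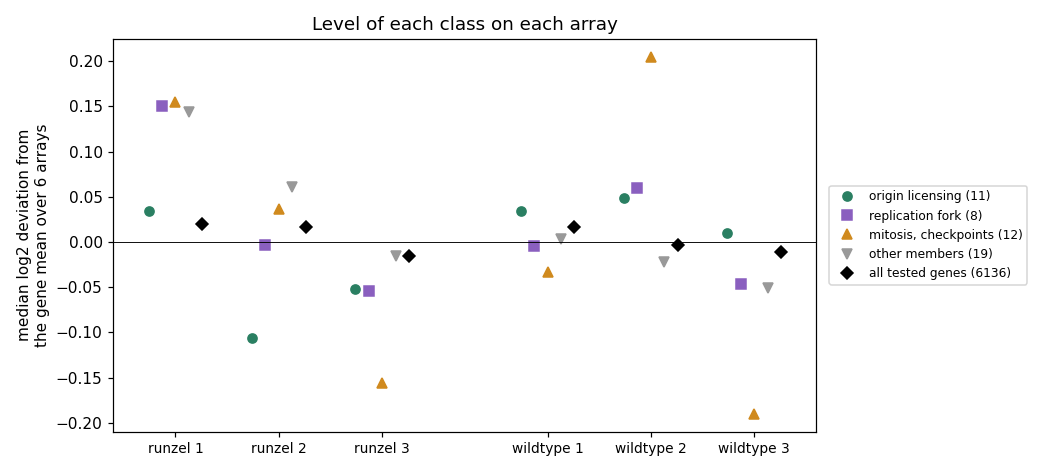
Median log2 deviation of each class from its genes' means over the 6 arrays (y axis) on each array (x axis, runzel at the left, wildtype at the right), with the number of tested genes in brackets. The mitosis class lies at -0.16 and -0.19 on the arrays numbered 3. All tested genes stay between -0.016 and 0.020 and are also lowest of each group on the arrays numbered 3.

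Genes of the same pathway outside the rule also gave 0 calls. Of 93 listed genes of replication, mitosis and cycle control, 74 had a probe set and 59 were tested. Of these, 27 lay above 0 and 32 below, with a median of -0.043. In either fit 0 passed, against 0% of all tested genes without the block and 1.3% with it, so 0 calls do not set these genes apart. At an unadjusted p under 0.05 there were 2 of 59 without the block, against 4.97% of all tested genes, and 6 of 59 with it, against 13.1%. The replication genes, such as the polymerases and their cofactors, had 7 above 0 and 13 below among 20 tested, with a median of -0.069. Of these, 2 had an unadjusted p under 0.05 with the block, in opposite directions. Runzel tk1 was higher in 3 of 3 pairs, by 0.43 ± 0.14, and slbp lower in 3 of 3, by -0.36 ± 0.34. Both had overlapping groups and did not pass (adjusted p = 0.254 and 0.389 with the block). Mitosis genes had 7 above and 8 below among 15, with a median of -0.033, and genes of cycle control had 13 above and 11 below among 24, with a median of 0.023. The control gene myca, a Myc transcription factor that drives growth, had the smallest p of the 59 with the block. It read 1380.1, 1531 and 1740.2 in runzel and 1039.9, 1093 and 1258 in wildtype siblings, so every runzel array was above every wildtype array, by 0.44 ± 0.041, and it did not pass (adjusted p = 0.967 without and 0.198 with the block). The other tested myc genes of the list lay below 0, mycb at -0.135, mycn at -0.123 and mych at -0.332 ± 0.0611. Runzel mych was lower in 3 of 3 pairs and did not pass (adjusted p = 0.298 with the block). The inhibitor gene cdkn1ca, which restrains cyclin-dependent kinases, read 2480.0, 3144 and 2718 in runzel and 2099.6, 2139.6 and 2235 in wildtype siblings. Runzel cdkn1ca was higher on every array, by 0.35 ± 0.17, and did not pass either (adjusted p = 0.277 with the block). Of the other tested cdkn genes, cdkn1bb lay at -0.202 ± 0.213 and cdkn3 at 0.069 ± 0.239. The myc and cdkn genes, tk1 and slbp were named here after their values were seen.

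In the fit with the block, which called 1.3% of all tested genes, 8 markers of other tissues passed, all lower in runzel. The marker lists were drawn up with earlier results of these data known, so this count cannot be weighed against that share. Of these 8, krt94 and agr1 passed with the number as a random block and 0 with the block and no intensity trend (adjusted p of 0.119 to 0.438). With the block and without pair 1 or without pair 2, krt94 alone of the 8 passed, and without pair 3 there were 5, agr1, aqp1a.1, hbbe2, krt17 and krt94. Of 11 tested epidermis markers 10 lay below 0, with a median of -0.22, and krt91, krt94, agr1 and krt17 fell with the block, with a summed signal of 268000 to 323000 in runzel and 312000 to 363000 in wildtype siblings. All 3 tested endothelium markers lay below 0 (7040 to 10400 in runzel and 11900 to 13900 in wildtype siblings), and aqp1a.1 and klf2a fell with the block. The mean of aqp1a.1, the brightest of the 3, was 6088.8 in runzel and 9174.9 in wildtype siblings. Runzel kdrl was higher in 1 pair, with a difference of -0.156 ± 0.33 (adjusted p = 0.715 with the block). Of 13 tested neural markers 11 lay above 0, with a median of 0.16 and 0 that passed (38200 to 43000 in runzel and 35700 to 46000 in wildtype siblings). The 2 below 0 were gfap (-0.192) and stmn1b (-0.355), each lower in runzel in 3 of 3 pairs. Muscle progenitor markers had 3 tested members, all above 0 without passing. Too dim to test were pax3a (-0.939) and myf5 (-0.418), both below 0. The sum of the 5 with a probe set was 3410 to 4050 in runzel and 2890 to 3930 in wildtype siblings. All sums take in the markers with a probe set, also those too dim to test. They thus cover 15 neural, 8 blood and 7 gut, liver and pancreas markers. Of 7 tested blood markers 5 lay above 0 and hbbe2 fell with the block (114000 to 140000 in runzel and 125000 to 167000 in wildtype siblings). The 2 blood markers below 0 were the globin genes hbae3 (-0.231) and hbbe2 (-0.463). Above 0 were the globin gene hbbe3 (0.444), mpx (0.463), lyz (0.311), lcp1 (0.138) and alas2 (0.028). Of 5 tested gut, liver and pancreas markers 4 lay below 0 and tfa fell with the block (29600 to 40500 in runzel and 42500 to 52500 in wildtype siblings). No marker of any of these lists was at 0 on all arrays, no marker passed without the block, and the part of these tissues in the members' values was not tested.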

How the data were processed

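Total RNA of trunk and tail muscle was hybridized to Affymetrix Zebrafish Genome Arrays, 3 per group. Per the labels, arrays were read on a GeneChip Scanner 3000 and quantified with GeneChip Operating Software 1.2. The deposited values are linear signal intensity per probe set, already scaled, and the summary method and scaling target are not given in the sources used here. Of 15617 probe sets, 115 are controls and were dropped. Among the remaining 15502, 10795 had 1 gene symbol in the platform annotation, 135 several and 4572 none. An Entrez identifier in the RefSeq gene table matched 80 of the 81 members, and 0 symbols changed.

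Values were analysed as log2(signal + 50). Probe sets with a mean under the 40th percentile (8.904) were left out, which kept 9301, 73 of them members'. The comparison used limma (version 3.58.1, R 4.3.3; empirical Bayes with an intensity trend, two-sided, Benjamini-Hochberg over all 9301), and each gene is given by the brightest of its tested probe sets. The fits were also run on simulated data with independent normal noise, which does not show how they behave on these arrays. The members, lists and tests were chosen with earlier results of these data known. Arrays of the same number correlated in their deviations from the group means at 0.551, 0.389 and 0.526 and arrays of different numbers at -0.401 to -0.152, so the numbers were taken as pairs, on the basis of these values alone. P-values set a difference against the spread between arrays of a group, or with the block against the spread left after differences between array numbers. That spread was moderated over all tested probe sets. As larvae were pooled, it is not the spread between larvae. Given with the signal on every array are members past the threshold, members with non-overlapping groups and an unadjusted p under 0.05 in either fit, the 2 with the smallest p in each class with the block, and set anchor genes, 27 in all. Other members named were chosen after their values were seen. Other offsets, filters, normalizations, variance models and left-out arrays were tried.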

Additional observations from a re-analysis of the deposited data

How the results depend on the processing

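Under each of the 21 alternatives 0 member genes passed, and the smallest adjusted p of a member at its brightest probe set was 0.155, with the replicate block. The members' median log2 difference, 0.035, ran from -0.063 to 0.072 with 1 array left out (the lowest without runzel replicate 1) and from -0.08 to 0.046 with the replicate block and 1 pair left out (the lowest without pair 1), so its sign rests on single arrays. It was -0.011 under quantile normalization and -0.019 under median centring. Without the members placed outside the 7 division classes it was -0.021, over 42 tested genes. Over the whole array, limma without a block called 0 probe sets, with 447 at an unadjusted p under 0.05. It called 111 with the replicate block, 19 with the number as a random block, 81 with the replicate block and no intensity filter (added after seeing the data) and 3 with the replicate block and no intensity trend. With 1 array left out it called 0 to 1 (1 without runzel replicate 1), and with the replicate block and 1 pair left out 34 (pair 1), 29 (pair 2) and 149 (pair 3). The block changed no call of a member. Of the 27 members given by array, up to 5 changed sign with an array or pair left out, 2 under median centring, 1 with the mean of a gene's probe sets and 0 under the other settings, of which the 60th percentile filter kept only 21 of the 27. The number of arrays and, for the 20 dim members, low signal limit the precision.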
